A study of Mus musculus with 10 samples.

Results

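The genes described here encode adhesion and co-receptors of platelets that carry immunoglobulin (Ig) domains and lack an ITIM, the tyrosine motif in the cytoplasmic tail of inhibitory receptors. The 8 genes, Cd226, Slamf1, Cd84, Esam, F11r, Jam3, Icam2 and Cd47, were chosen by symbol from the 23420 genes of the deposited platelet count table, and all 8 had a row in it. Of these, 6 had a count in at least 1 library and 5 passed the expression filter of the test, against 4692 and 1016 of the 23420 genes. Platelets of adult mice were sorted by flow cytometry out of peripheral blood into a Tomato+ and a Tomato- fraction, with 5 libraries each. Tomato is a red fluorescent protein; the sources used here do not give its driver gene. The labels do not say that the libraries of a fraction came from separate animals, so each p-value below reflects only how these libraries vary, and that variation may be technical.

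Platelets are anucleate fragments of megakaryocytes, and their RNA is what the megakaryocyte left in them. Ig superfamily receptors on their surface hold platelets to each other, to leukocytes and to endothelium, mostly by binding a copy of themselves or another Ig protein on the opposite cell, and some of them set how strongly the fibrinogen receptor, an integrin, signals once platelets touch. Slamf1 and Esam also serve as surface markers of mouse haematopoietic stem cells.

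Libraries held between 5411417 and 16179973 counts. Levels are counts per 1000000 counts of the library (CPM). Replicates 1, 2 and 5 of Tomato- stood apart with 807 to 978 detected genes (genes with at least 1 count), against 1118 to 2450 in the other 7 libraries, so fold changes without these 3 are also given. Of the platelet markers, 8 of 8 had counts, with a sum of 42401 to 58025 CPM in Tomato+, against 43474 to 56526 CPM in Tomato-. Defining markers of leukocytes that also carry some of these receptors were at 0 in all libraries, namely Cd79a and Ms4a1 of B cells, Cd3e of T cells, Ncr1 of natural killer cells and Csf1r of monocytes. Only 4692 of the 23420 genes had a count in any library, so a 0 alone does not show that a cell type was absent. Other genes of these lists had counts, among them Cd37 in 2 Tomato+ libraries and Nkg7 and Ms4a6c in 1 Tomato- library each. Lyz2, a lysozyme gene of myeloid cells, was the one monocyte marker tested, with 7672 ± 1117 CPM in Tomato+, against 7857 ± 1189 CPM in Tomato- (SD, n = 5 each). Of 9 endothelial markers 4 (Cdh5, Tek, Emcn and Egfl7) were at 0, and the sum of the list was 464 to 1501 CPM in Tomato+, against 130 to 1725 CPM in Tomato-, most of it from Pecam1, which platelets also express. The neutrophil, B cell and T and NK cell lists summed to at most 240, 115 and 20.7 CPM in any library, and the red cell list to 1.38 to 338 CPM in Tomato+ and 47.7 to 3440 CPM in Tomato-. In bulk RNA of this kind, fewer platelets with a transcript and less transcript per platelet cannot be told apart.

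The receptors were a minor part of platelet RNA in both fractions. Their summed level was 5262 ± 1271 CPM in Tomato+, between 3210 and 6656 CPM, and 6086 ± 1372 CPM in Tomato-, between 4759 and 8118 CPM (SD, n = 5 each). The 2 ranges overlapped widely. Without the 3 libraries with few detected genes the Tomato- mean was 7194 CPM (n = 2). What varied was the mix. Per kilobase of transcript, Cd226 had the highest level of the 8 in 5 of 5 Tomato+ libraries and in 2 of 5 Tomato- libraries, while Esam led Tomato- replicates 1 and 5 and Cd47 led Tomato- replicate 2. These 3 are the libraries with few detected genes.

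Per kilobase of merged exons (GENCODE M21), Cd226 had the highest mean level of the set at 479 ± 104 CPM per kb in Tomato+ and 354 ± 261 CPM per kb in Tomato- (SD, n = 5 each). In Tomato+ it was followed by Esam at 169 ± 83.0, Cd47 at 163 ± 122, Slamf1 at 130 ± 78.8, Cd84 at 71.3 ± 43.6 and F11r at 61.4 ± 89.5 CPM per kb. In Tomato+ the gap between Cd226 and Esam exceeded the sum of their SDs, and each later pair of neighbours differed by less than the larger of their SDs. In Tomato- the order was Cd226, Esam at 311 ± 261, Slamf1 at 224 ± 134, Cd47 at 200 ± 198, Cd84 at 123 ± 96.5 and F11r at 23.0 ± 36.5 CPM per kb. Cd84 and F11r differed there by slightly more than the larger of their SDs, and the other neighbours by less.

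Cd226 encodes DNAM-1, a receptor of platelets, natural killer cells and T cells that binds the poliovirus receptor (Pvr) and nectin-2 on other cells. It was the only one of the 8 with counts in all 10 libraries, and ranked at position 68 of all genes by mean CPM. The gene lies on chromosome 18 (89176967 to 89272229, plus strand, GRCm38). Its level was 2562, 2049, 1671, 3008 and 2413 CPM in Tomato+ replicates 1 to 5, against 253, 1079, 3692, 1967 and 1655 CPM in Tomato- replicates 1 to 5. The Tomato+ libraries lay close together, while the Tomato- libraries held both the lowest and the highest value, so the groups overlapped. The mean was 2341 ± 508 CPM in Tomato+, against 1729 ± 1277 CPM in Tomato- (SD, n = 5 each). Its log2 fold change, Tomato+ over Tomato-, was 0.56 (SE 0.56, 95% interval -0.63 to 1.74) and did not pass (edgeR quasi-likelihood test, Benjamini-Hochberg adjusted p = 0.9996, unadjusted p = 0.333).

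Both directions were seen for Cd226 when libraries were left out. Without the 3 Tomato- libraries with few detected genes the log2 fold change was -0.24 (SE 0.40). The mean of these 3 was 996 CPM and that of the other 2 Tomato- libraries 2830 CPM. Without Tomato- replicate 3, the highest library, it was 1.11 (SE 0.52, edgeR unadjusted p = 0.0478, adjusted p = 0.998). On the log2 scale the SD of Cd226 between libraries was 0.32 in Tomato+ and 1.45 in Tomato-. Among the 225 genes with at least 10 counts in every library, the median SD was 0.50 in Tomato+ and 0.70 in Tomato-, and 162 of the 225 had a larger SD than Cd226 in Tomato+ but 37 of them in Tomato-. That contrast in spread was not tested. The genes whose order over the 10 libraries was most like that of Cd226 among the other 224 were Atox1, a copper chaperone gene, and Mkrn1, a ubiquitin ligase gene, each with a Spearman rho of 0.78, given as a description of libraries that share depth and drop-out. Atox1 likewise had its 3 lowest levels, 180, 198 and 259 CPM, in Tomato- replicates 1, 2 and 5. Mkrn1 did not. It was lowest in Tomato- replicates 2 and 5, at 2482 and 2944 CPM, and next in Tomato+ replicate 5 at 3135 CPM. Its level in Tomato- replicate 1 was 3250 CPM.

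**Figure D1:**
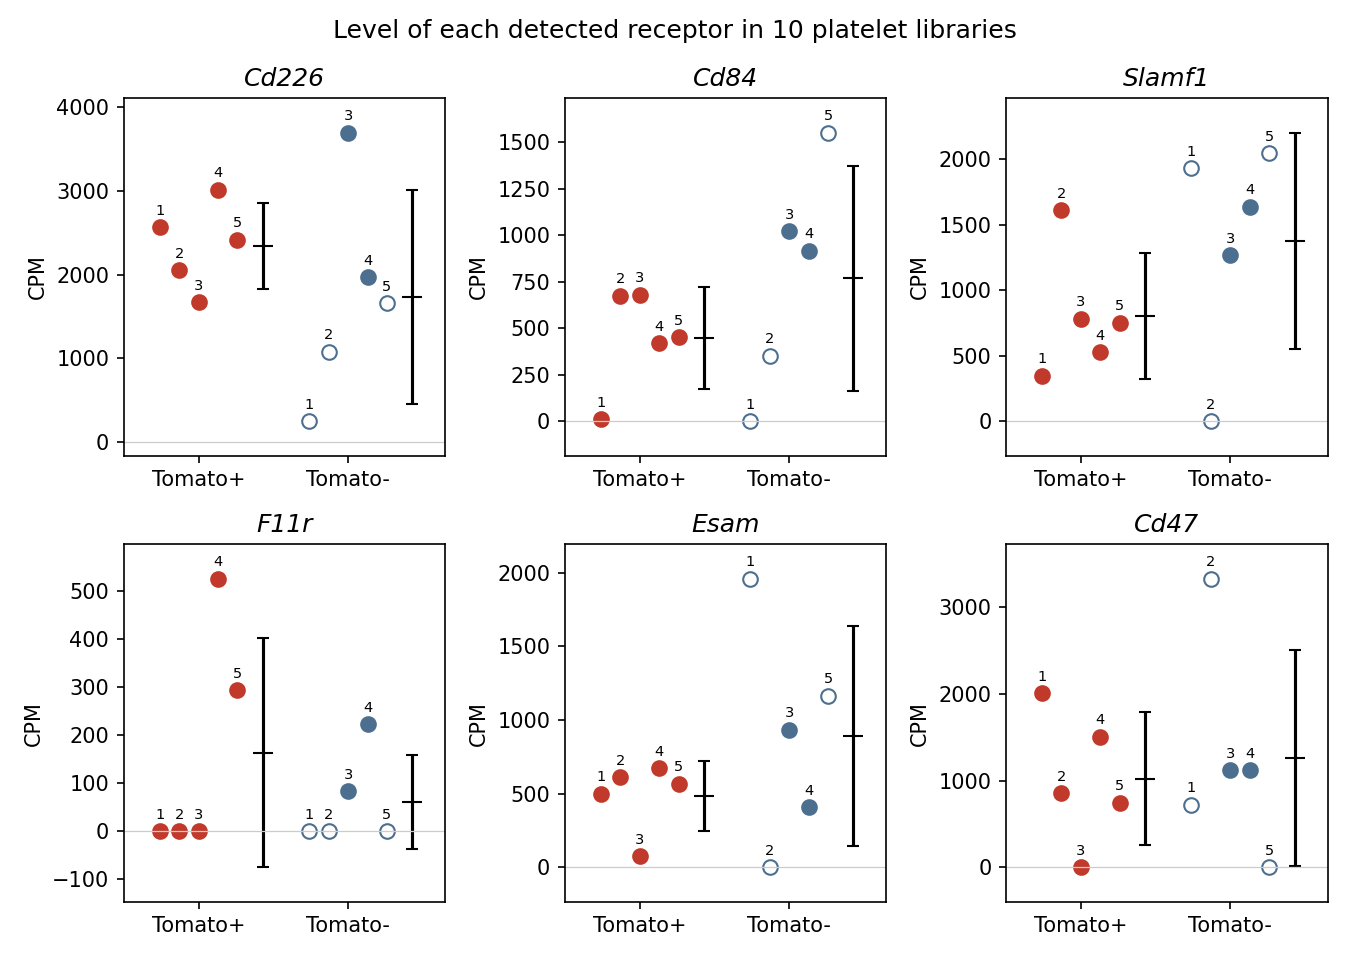
CPM (y axis, linear) of each detected receptor in Tomato+ (red) and Tomato- (blue) libraries, with the replicate number above each point, open points for the 3 libraries with under 1000 detected genes, and a bar for mean ± SD (n = 5 each). The groups overlap for all 6 genes, and Slamf1, Cd84, Esam and Cd47 each fall to 0 in 1 Tomato- library.

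Slamf1 and Cd84 belong to the SLAM family, receptors that bind a copy of themselves on the neighbouring cell and signal through small SH2 adaptors such as SAP. Slamf1 encodes CD150, the marker that separates mouse stem cells from most other progenitors. Its level was 345, 1610, 783, 525 and 753 CPM in Tomato+ replicates 1 to 5, against 1933, 0, 1267, 1639 and 2048 CPM in Tomato- replicates 1 to 5. Apart from Tomato- replicate 2, where it was at 0, every Tomato- library lay above 4 of the 5 Tomato+ libraries, and Tomato+ replicate 2 lay among them. The log2 fold change was -0.58 (SE 1.19, 95% interval -3.10 to 1.94) and did not pass (edgeR adjusted p = 0.9996). Without Tomato- replicate 2 it was -0.90 (SE 0.56, edgeR unadjusted p = 0.127, adjusted p = 0.998), and without the 3 libraries with few detected genes it was -0.80 (SE 0.66).

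Cd84, a SLAM receptor gene of platelets and lymphocytes, had 8.55, 674, 681, 419 and 452 CPM in Tomato+ replicates 1 to 5, against 0, 352, 1023, 916 and 1553 CPM in Tomato- replicates 1 to 5. Its 3 highest libraries were Tomato- replicates 3, 4 and 5, and its lowest were replicate 1 of each fraction, so the groups overlapped. The log2 fold change was -0.57 (SE 1.49, 95% interval -3.74 to 2.60, edgeR adjusted p = 0.9996), and -0.99 (SE 0.97) without the 3 libraries with few detected genes. Of the 13 genes listed for the SLAM family and its adaptors, 4 had any count and 9 were at 0 in all libraries. Those at 0 included the family members Ly9, Cd48, Slamf6 and Slamf7 and the adaptor genes Sh2d1a (SAP), Sh2d1b1 and Sh2d1b2. Fyn, the kinase that SAP recruits, had counts in 2 libraries of each fraction, averaging 89.9 ± 135 CPM in Tomato+, against 67.5 ± 111 CPM in Tomato- (SD, n = 5 each).

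Slamf1, Cd84 and F11r lie in one stretch of chromosome 1, all on the plus strand. F11r lies at 171437535 to 171464603, Slamf1 at 171767127 to 171801184 and Cd84 at 171839697 to 171890718 (GRCm38), and 38.5 kb separate the end of Slamf1 from the start of Cd84. Of the 8 genes in the 453 kb from F11r to Cd84 whose GENCODE symbol had a row, these 3 had counts. The other 5 (Alyref2, Itln1, Ly9, Slamf7 and Cd48) had none in any library. Genes with a row under another symbol were not looked up for this stretch. The start regions of Slamf1, Cd84 and F11r are shown because these genes lie in one stretch. The 3 genes differed in how regularly they were detected, and a link between start sequence and detection was not tested. Slamf1 was detected in 9 libraries, Cd84 in 9 and F11r in 5. Each run goes from 250 bases before to 50 bases after the RefSeq start (GRCm38.p6, plus strand), with capitals on matches, on either strand, to the letters AGATAA for factors of the GATA family, GGAAGT for factors of the ETS family or TGTGGT for factors of the RUNX family.
Slamf1, chr1:171766882-171767181: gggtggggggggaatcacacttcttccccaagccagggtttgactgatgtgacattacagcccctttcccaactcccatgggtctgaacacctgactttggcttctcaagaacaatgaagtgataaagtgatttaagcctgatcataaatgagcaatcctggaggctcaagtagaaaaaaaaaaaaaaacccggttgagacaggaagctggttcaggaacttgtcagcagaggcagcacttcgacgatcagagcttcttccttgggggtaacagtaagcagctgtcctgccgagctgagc
Cd84, chr1:171839447-171839746: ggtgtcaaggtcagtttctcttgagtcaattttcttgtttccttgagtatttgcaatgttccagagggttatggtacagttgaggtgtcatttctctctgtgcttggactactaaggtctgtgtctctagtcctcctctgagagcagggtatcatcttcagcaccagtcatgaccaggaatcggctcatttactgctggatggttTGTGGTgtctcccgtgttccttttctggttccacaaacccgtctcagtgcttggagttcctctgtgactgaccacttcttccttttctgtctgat
F11r, chr1:171437311-171437610: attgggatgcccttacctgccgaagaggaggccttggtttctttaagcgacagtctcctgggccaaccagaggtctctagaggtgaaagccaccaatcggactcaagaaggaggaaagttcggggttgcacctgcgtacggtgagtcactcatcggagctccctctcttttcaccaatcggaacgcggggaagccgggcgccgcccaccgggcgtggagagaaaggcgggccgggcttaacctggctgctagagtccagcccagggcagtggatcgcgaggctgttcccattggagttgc
The 3 sequences held 1 match in all, TGTGGT in that of Cd84, which starts 45 bases before the RefSeq start. Across 27025 promoters of this length, 11.4% held AGATAA, 24.1% GGAAGT and 16.9% TGTGGT on either strand. The matches are letters in this window and say nothing of factor binding, which was not measured. The F11r window was richer in CG pairs, with 19 against 4 in Slamf1 and 3 in Cd84, where the median promoter had 7. The RefSeq start window of Cd47 on chromosome 16 (49855404 to 49855703) lay inside the GENCODE span of the gene given below, not at its start. It held 35 CG pairs and none of the motifs, and no RefSeq window was printed for the other members.

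Esam, F11r and Jam3 encode members of the junctional adhesion molecule group, which seal contacts between endothelial cells and are also found on platelets. Esam, a stem cell and endothelial marker, lies on chromosome 9 (37528078 to 37538319, plus strand, GRCm38). It had 499, 611, 74.7, 673 and 567 CPM in Tomato+ replicates 1 to 5, against 1958, 0, 932, 407 and 1163 CPM in Tomato- replicates 1 to 5. In Tomato+, 4 libraries lay close together and replicate 3 was low, while the Tomato- libraries lay on both sides of them. The mean was 485 ± 238 CPM in Tomato+, against 892 ± 749 CPM in Tomato- (SD, n = 5 each), and the log2 fold change was -0.65 (SE 1.36, 95% interval -3.54 to 2.24, edgeR adjusted p = 0.9996). It was -0.18 without Tomato- replicate 1, -1.04 without Tomato- replicate 2 and -0.47 (SE 1.05) without the 3 libraries with few detected genes.

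F11r encodes JAM-A, which binds itself and, in mouse platelets, holds back signalling by the fibrinogen receptor. It had 0, 0, 0.461, 525 and 293 CPM in Tomato+ replicates 1 to 5, against 0, 0, 83.8, 223 and 0 CPM in Tomato- replicates 1 to 5. The 0.461 CPM stood for 3 counts, so F11r was present at more than a trace in replicates 4 and 5 of Tomato+ and replicates 3 and 4 of Tomato-, the 4 libraries with the most detected genes. It did not pass the expression filter. With no filter its log2 fold change was 1.45 (SE 2.85, edgeR adjusted p = 0.852), an estimate that rests on these 4 libraries. Without the 3 libraries with few detected genes F11r passed the filter and its log2 fold change was 0.11 (SE 2.997).

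Jam3 (JAM-C, which binds the leukocyte integrin Mac-1 in human platelets) and Icam2 (a ligand of the leukocyte integrin LFA-1) had 0 counts in all 10 libraries. A count of 0 allows up to 0.185 to 0.554 CPM by library, from 3 counts of its total, for counting error only. Since genes such as Cd47 went from 0 to 3328 CPM between libraries of one fraction, these limits do not bound the level in the platelets. Icam1, Icam4 and Icam5 were also at 0, as were Jam2 and Cxadr of the JAM-related list, of whose 9 genes Esam, F11r and Clmp had counts. Most genes of the whole table were likewise at 0. Clmp, a related adhesion gene, was seen in 1 Tomato- library at 10.7 CPM.

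Cd47 encodes a membrane protein with an Ig domain that tells phagocytes to spare the cell, through SIRPα, and that binds thrombospondin. It lies on chromosome 16 (49800533 to 49915010, plus strand, GRCm38) and had 2006, 853, 0.461, 1505 and 747 CPM in Tomato+ replicates 1 to 5, against 720, 3328, 1119, 1118 and 0 CPM in Tomato- replicates 1 to 5. Each fraction had 1 library at or near 0, with 3 counts in Tomato+ replicate 3 and none in Tomato- replicate 5. The log2 fold change was -0.04 (SE 1.43, 95% interval -3.07 to 2.98, edgeR adjusted p = 0.9996). It was 0.28 without Tomato+ replicate 3 and 0.45 without Tomato- replicate 2, where Cd47 was highest. Without the 3 libraries with few detected genes it was -0.22 (SE 1.86).

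No receptor passed the test between the fractions. Of the 5 tested, 0 were called higher and 0 lower in Tomato+ by edgeR at an adjusted p under 0.05, against 0% of 1016 genes tested in each direction. At an unadjusted p under 0.05 the count was 0 of 5, against 0.886% of all tested genes. DESeq2 and limma voom called none of the 5 either, against 0.0984% and 0.197% of tested genes, and the groups overlapped for 5 of 5, with 0.591% of tested genes not overlapping. The estimate was positive for Cd226 and negative for the other 4, with a median log2 fold change of -0.57, where the median of all tested genes was 0.21. The intervals of Slamf1, Cd84, Esam and Cd47 each reached past a 2-fold change in both directions, so such a difference was not detectable with these libraries. For Cd226 a 2-fold lower level in Tomato+ lay outside the interval and a 2-fold higher one inside it, and this turned round without the 3 libraries with few detected genes (interval -1.03 to 0.55).

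**Figure D2:**
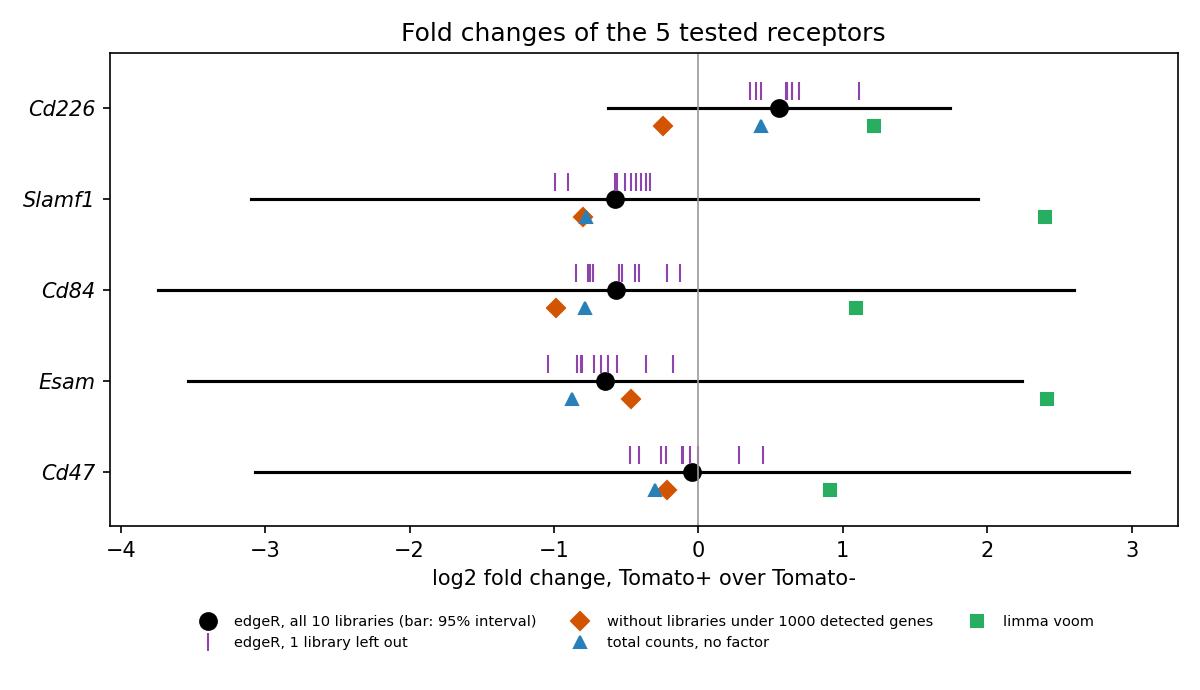
Log2 fold change (x axis, Tomato+ over Tomato-) of the 5 tested receptors from edgeR with all 10 libraries (black, bar for the 95% interval), with 1 library left out (purple), without the 3 libraries under 1000 detected genes (orange), scaled by total counts (blue) and from limma voom (green). All 5 intervals include 0. The estimate of Cd226 without the 3 libraries, and those of the other 4 with limma voom, lie on the other side of 0. So do those of Cd47 without Tomato+ replicate 3 and without Tomato- replicate 2. The median of all tested genes was 0.21 in edgeR and 0.95 in limma voom.

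Zeros were frequent among the single values. Among 60 values of the 6 detected receptors, 9 were 0, 2 were below 10 counts, 1 was 100 counts and 48 were at least 486 counts, so a receptor was in most cases either plainly present or absent from a library. Of these 60 values 15% were 0 and 80% were above 100 counts, against 21.6% and 73.0% of the 6570 values of other genes with mean CPM in the range of these receptors. All 4 zeros of Slamf1, Esam, Cd84 and Cd47 fell in the 3 libraries with few detected genes, as did 3 of the 5 zeros of F11r. These libraries were set apart by their few detected genes, so zeros are more frequent there over all genes by that choice. The share of zeros of other genes in these libraries was not counted. The number of libraries with a count was set against that of genes of like abundance, within 2-fold of the mean CPM. It equalled their median for Cd226, Esam, Cd84 and F11r. Slamf1 and Cd47 were seen in 9 libraries, below the median of 10. Of their genes of like abundance, 13 of 176 and 11 of 169 were seen in fewer libraries. For Cd226 92.7% of 109 such genes were seen in all 10 libraries, for Slamf1 71.6% of 176 and for Cd47 74.0% of 169, while F11r was seen in 5 libraries, the median of its 627.

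The partners of these receptors were seen in part. Of 17 listed ligands and partner genes, 7 had counts and 4 were tested, none of which passed (median log2 fold change 0.15, against 0.21 over all tested genes). Pvr and the nectin genes Pvrl2 and Pvrl3, the ligands of DNAM-1 and their relative, were at 0, as were the rival receptors Tigit and Cd96. Thbs1 (thrombospondin 1, a ligand of CD47) had 1525 ± 1005 CPM in Tomato+, against 1509 ± 1046 CPM in Tomato- (log2 fold change 0.21, SE 0.55, SD over n = 5 each). Itgb2, the beta chain of LFA-1 and Mac-1, had 1117 ± 297 CPM in Tomato+, against 1246 ± 729 CPM in Tomato-. Itgb3, the beta chain of the fibrinogen receptor, had 1230 ± 384 CPM in Tomato+, against 1334 ± 361 CPM in Tomato-. Of 13 genes for cytoplasmic anchors, 6 had counts and only Msn was tested. Msn, which encodes moesin, a link from receptor tails to actin, had 183 ± 177 CPM in Tomato+, against 91.3 ± 132 CPM in Tomato- (log2 fold change 1.04, SE 2.71, edgeR adjusted p = 0.9996). Ubqln1 had counts in 1 Tomato+ library alone.

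Other Ig superfamily surface genes and stem cell markers gave the setting for the set. Among 10 listed genes of the first kind, which include Fcer1g, the signalling partner of glycoprotein VI, 3 were tested and 0 passed (2 positive and 1 negative estimate, median 0.86). Fcer1g had 1680 ± 490 CPM in Tomato+, against 1037 ± 527 CPM in Tomato-, Gp6 (glycoprotein VI) had 429 ± 227 CPM in Tomato+, against 1481 ± 910 CPM in Tomato-, and Bsg (basigin) had 743 ± 239 CPM in Tomato+, against 356 ± 333 CPM in Tomato- (SD, n = 5 each). Of 10 stem cell markers, which include Slamf1 and Esam, 4 were tested, with 1 positive and 3 negative estimates and none past the threshold (median -0.46). Procr, Kit, Mecom, Hlf and Cd34 were at 0 in all libraries, as were most genes of the table.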

How the data were processed

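Complementary DNA was made by a Smart-seq+ protocol and libraries by Nextera XT, per the labels' protocols. Raw read counts by gene symbol were deposited for 10 libraries, without normalization. Trimmomatic, FastQC, STAR, featureCounts and mm10 are named without versions in the submitters' processing notes, and the sources used here give neither the strand setting nor the rule for multi-mapping reads. Without molecular identifiers, reads are not independent molecules. CPM used the sum of all rows, and 93.0% of symbols matched GENCODE M21 (GRCm38). The main test was that of edgeR 4.0.16 under R 4.3.3 (robust quasi-likelihood F test, TMM, expression filter with minimum count 10 and minimum total 15, group as sole term) and Benjamini-Hochberg adjustment over 1016 genes at 0.05; limma 3.58.1 (voom) and DESeq2 1.42.0 were alternatives. The median log2 fold change of all tested genes lay 0.24 above that with total-count scaling. Single genes moved by other amounts, as Cd226 was 0.56 in the main test and 0.44 with total counts. The edgeR step was tested on simulated counts with large changes and without the drop-out of these libraries. That check does not show that changes of the size estimated here would be found. Named genes are all 8 receptors and up to 3 of the most abundant genes of each related list; cell type marker lists are given mainly as sums, and other genes mainly where at 0. Some genes of these lists are not reported here. Members and lists were chosen with earlier results of these data known. The exons of Jam3 overlap an antisense gene that has no row in the table.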

Additional observations from a re-analysis of the deposited data

How the results depend on the processing

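No tested receptor was called in any of 18 other settings, where 5 or 6 were tested except with at least 10 counts in every library, where Cd226 alone was, and 0 genes were called in either direction in edgeR whenever 1 library was left out, with RLE or total-count scaling, and with either other filter. limma voom called 2 genes higher in Tomato+ (Ctla2a and Tmsb4x) and DESeq2 called 1 lower (Tug1), none of them a receptor. Leaving out 1 library moved the log2 fold change of Cd226 between 0.36 and 1.11, of Slamf1 between -0.99 and -0.34, of Esam between -1.04 and -0.18, of Cd84 between -0.85 and -0.13, and of Cd47 between -0.47 and 0.45. The log2 ratio of the summed level, -0.21, lay between -0.31 and -0.08 with 1 library left out, was -0.45 without the 3 libraries under 1000 detected genes and was -0.017 with TMM scaling. Signs turned as follows, and the cause was not tested. Without the 3 libraries under 1000 detected genes Cd226 was -0.24. Cd47 was 0.28 without Tomato+ replicate 3 and 0.45 without Tomato- replicate 2. With limma voom, where the median of all tested genes was 0.95 in place of 0.21, Slamf1 was 2.40, Esam 2.42, Cd84 1.09 and Cd47 0.91. With the replicate number as a block in edgeR Cd84 was 0.40 and Cd47 0.23, where the median of all tested genes was 0.56, and 0 genes were called. The labels do not say whether same-numbered libraries of the fractions are pairs. Same-numbered libraries had correlations of deviations from -0.02 to 0.25 over 225 genes, and 1 of 5 Tomato+ libraries correlated best with its own number. With the drop-out in these libraries, such values cannot settle whether they are pairs. Cd226 kept its sign in both of these settings but moved up. It was 1.08 (SE 0.58) with the replicate block in edgeR. With limma voom it was 1.21 (SE 0.57, limma voom unadjusted p = 0.0468, adjusted p = 0.726). Scaling by total counts turned no receptor's sign. The limits given for counts of 0 cover counting error only, and the intervals of fold changes reflect the variation between libraries.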

Other observations

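Itgal, the alpha chain of LFA-1, a leukocyte integrin that binds ICAM-2 and JAM-A and associates with DNAM-1, had counts in 5 Tomato+ and 4 Tomato- libraries. It is named here after its values were seen. Its level was 560 ± 244 CPM in Tomato+, between 244 and 920 CPM, and 105 ± 175 CPM in Tomato-, between 0 and 414 CPM (SD, n = 5 each). The ranges overlapped, and the log2 fold change of 2.45 (SE 1.88) did not pass (edgeR adjusted p = 0.9996, unadjusted p = 0.212).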
